A study of Mus musculus with 18 samples.

Results

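Complement is a cascade of plasma and tissue proteins that tags particles, cell debris and synapses for uptake and attracts immune cells. C1q starts its classical arm, the proteases that follow assemble the enzyme that splits C3, and the small fragments C3a and C5a act on receptors of myeloid cells. In the brain, microglia are a main source of C1q and carry the receptors that take up tagged material, and complement is known for its part in the pruning of synapses. The genes described here are 9 listed complement components and receptors, taken by every probe set of the array that names the gene and no other. They gave 14 probe sets from 7 genes, of 34958 such probe sets from 18194 genes: 1 for C1qa, 3 for C1qb, 1 for C1qc, 3 for C2, 1 for Serping1, 3 for C3ar1 and 2 for C5ar1. C3 had no single-gene probe set in the annotation used here, and the only probe set of C4b also names C4a, so no value is given for these 2 genes. All 14 probe sets passed the filter on low values, a mean over the 18 arrays of at least 2.49 on the log2 scale.

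The arrays hold RNA of microglia, the macrophages of brain tissue, from embryos of C57BL/6 background at E17.5. LPS arrays (n = 4) are of wild-type embryos whose mothers were inflamed with lipopolysaccharide, a bacterial endotoxin, and PBS arrays (n = 4) of wild-type embryos under the saline control of that treatment. DAP12KO arrays (n = 4) are of untreated embryos with the DAP12-/- mutation, and UT arrays (n = 6) of untreated wild-type embryos. DAP12, the product of Tyrobp, is an adaptor that carries signals of microglial receptors such as TREM2. In all groups the cells were sorted for GFP under CX3CR1 from pooled hippocampi after trypsin and DNase, were pooled per dam, and are of unrecorded sex. GFP marks macrophages at the borders of the brain as well, so the sort alone does not part them from microglia. The labels end in a year, and nothing says what it marks. These label years are called batches here: batch 1 for _2008, batch 2 for _2010, batch 3 for _2012 and batch 4 for _2013. LPS and PBS each have 1 array in batch 1, 2 in batch 2 and 1 in batch 4, DAP12KO has 4 in batch 4, and UT has 2 in batch 3 and 4 in batch 4. The LPS array of batch 4 is labelled 3_2 and that of batch 1 carries the number 3, and the labels do not say whether they are separate samples, so the n of 4 for LPS takes them as such.

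The 15 measured microglia markers were bright, with a mean log2 value of 12.55 to 13.69 on 16 arrays. The 2 PBS arrays of batch 2 (PBS1_2010 and PBS2_2010) stood apart at 11.59 and 11.60. In them the mean of 15 neuron markers was at its highest, 10.96 and 11.04, with 6.31 to 9.38 on the rest. The mean of 11 markers of neural progenitors and radial glia was likewise at 11.23 and 11.21, with at most 9.12 on the rest. Border macrophage markers (8 of 8 measured) ranged from 7.85 to 9.82 in LPS, 9.06 to 9.64 in PBS, 7.05 to 7.73 in DAP12KO and 7.10 to 9.63 in UT arrays. Of the monocyte and neutrophil markers 6 of 8 were measured, with means of 2.19 to 3.41, and Mpo, Elane and Camp were under 2.49 on every array. Tyrobp stood at 13.80, 13.83, 13.75 and 14.23 in DAP12KO arrays, against a lowest value of 14.29, a median of 14.50 and a highest of 14.55 in UT arrays. All DAP12KO arrays were thus below all UT arrays, with a difference of −0.60 ± 0.13 (log2, SE, adjusted p = 0.48 in limma). No source used here says where this probe set lies relative to the deleted part, so its level does not settle the label.

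The 3 C1q genes, which encode the A, B and C chains of the molecule, lie side by side on chromosome 4. In GRCm38.p6 they span chr4:136880126-136898844, 18719 bases, with C1qb at 136880126 to 136886200, C1qc at 136889801 to 136892936 and C1qa at 136895916 to 136898844, all coding genes. C2 lies on chromosome 17 (34862602 to 34882100), Serping1 on chromosome 2 (84765360 to 84775444), C3ar1 on chromosome 6 (122847140 to 122856157) and C5ar1 on chromosome 7 (16246743 to 16259540). RefSeq promoter sequence of that build, 250 bases before to 50 after the gene start, was at hand for 4 of the 7 genes (C1qb, C1qc, C3ar1 and C5ar1). For C1qc and C5ar1 the start used for the window is not the outer end of the gene span given above. Positions below count from the start used for the window. The promoters of C1qb and C1qc are shown because C1qc and 1 of the 3 probe sets of its neighbour C1qb stepped between the same batches, as described below with their values. Both read 5′ to 3′ along the minus strand, C1qb as chr4:136886151-136886450 and C1qc as chr4:136892865-136893164. Capitals mark GAGGAA, a core of the sites of the myeloid factor PU.1, or its reverse complement.
C1qb: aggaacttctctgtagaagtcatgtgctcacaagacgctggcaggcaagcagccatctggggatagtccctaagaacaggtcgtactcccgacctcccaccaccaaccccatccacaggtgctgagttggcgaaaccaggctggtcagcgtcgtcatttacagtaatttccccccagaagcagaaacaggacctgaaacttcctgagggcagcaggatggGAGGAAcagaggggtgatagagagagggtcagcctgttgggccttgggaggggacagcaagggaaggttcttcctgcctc
C1qc: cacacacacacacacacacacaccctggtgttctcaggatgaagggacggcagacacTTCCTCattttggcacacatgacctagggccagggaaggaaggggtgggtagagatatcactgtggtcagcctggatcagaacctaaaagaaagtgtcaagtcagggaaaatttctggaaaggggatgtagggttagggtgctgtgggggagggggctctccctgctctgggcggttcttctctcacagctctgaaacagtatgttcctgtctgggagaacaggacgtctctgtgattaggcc
GAGGAA was searched on both strands. It was found once in C1qb, from position −30 relative to the gene start, on the strand of the gene, and once in C1qc, from position −193, on the opposite strand. It was not found in the windows of C3ar1 and C5ar1. Of 32851 promoters of this length 28.3% hold it. The AP-1 motif TGANTCA, which reads the same on both strands, was found once in C3ar1, from position −22, and is held by 7.81% of promoters. TTCNNNGAA (GAS), searched on both strands, was in none of the 4 windows, and 8.3% of all promoters hold it. These matches describe letters and are not evidence of binding.

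C1q RNA was bright in every group, as the plot of values by array shows. Values of LPS and PBS arrays are given below in the order of batch 1, the 2 arrays of batch 2, and batch 4. C1qa (1417381_at) was at 13.16, 13.27, 13.30 and 13.64 in LPS arrays and at 13.07, 11.70, 12.95 and 13.64 in PBS arrays. It was at 13.87, 13.77, 13.67 and 13.96 in DAP12KO arrays, against a lowest value of 12.005, a median of 13.74 and a highest of 13.94 in UT arrays. The LPS and PBS arrays overlapped, as did those of DAP12KO and UT. All DAP12KO arrays lay above all LPS and PBS arrays, which include arrays of batches 1 and 2. Far under the rest were 1 PBS array of batch 2 and 1 UT array of batch 3. The order of the group means was DAP12KO (13.82 ± 0.13, SD), UT (13.47 ± 0.73), LPS (13.34 ± 0.21) and PBS (12.84 ± 0.82), and no neighbours in it differed beyond their spread.

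**Figure D1:**
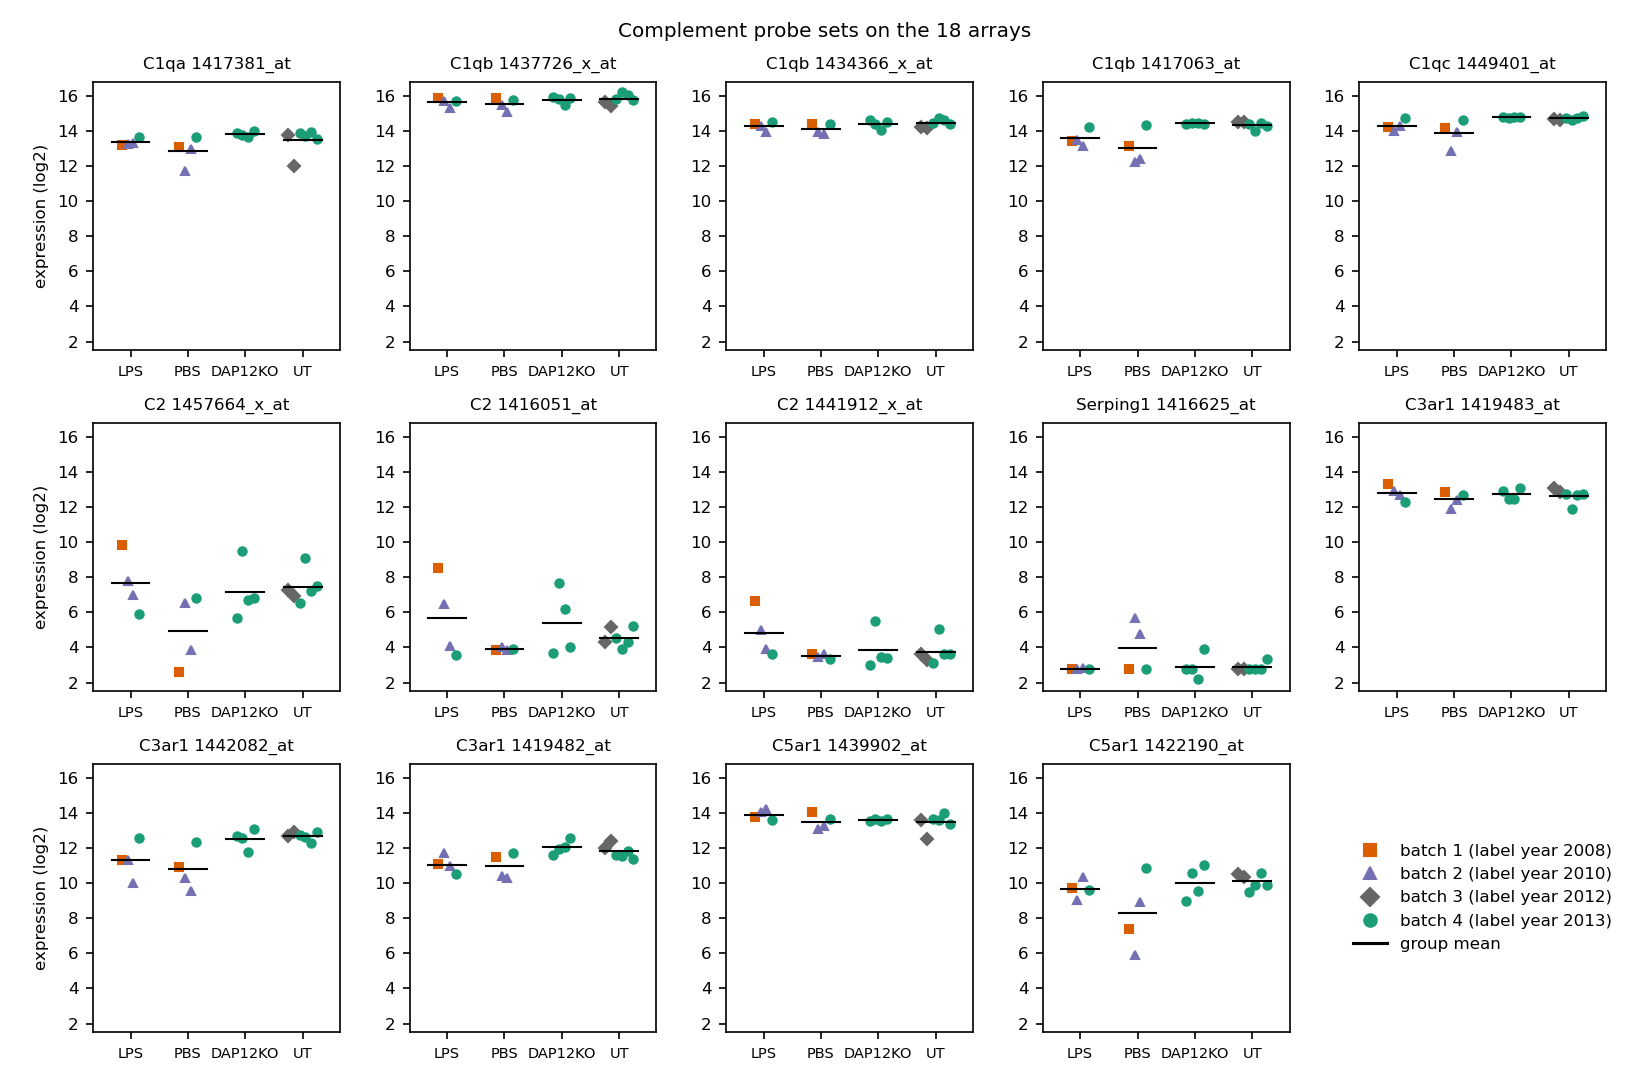
Log2 expression (y axis) of the 14 complement probe sets in the LPS, PBS, DAP12KO and UT groups (x axis), a point per array shaped and coloured by batch, with a line at the group mean. C1q probe sets lie between 11.70 and 16.21 on all arrays, while C2 spreads from 2.62 to 9.85 and Serping1 lies between 2.76 and 2.81 on 13 of the 18 arrays.

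C1qc (1449401_at) was at 14.20, 13.98, 14.24 and 14.74 in LPS arrays and at 14.14, 12.85, 13.94 and 14.63 in PBS arrays. The DAP12KO arrays stood at 14.79, 14.73, 14.80 and 14.77, against a lowest value of 14.61, a median of 14.71 and a highest of 14.82 in UT arrays. The LPS and PBS arrays overlapped, as did those of DAP12KO and UT, while all DAP12KO arrays lay above all PBS arrays. The lowest value by far was again PBS replicate 1 of batch 2. In this gene the DAP12KO and UT arrays hardly varied (SD 0.03 and 0.08), against 0.32 in LPS and 0.75 in PBS arrays. The values stepped between batches: the 6 arrays of batches 1 and 2 lay between 12.85 and 14.24, and the 12 arrays of batches 3 and 4 between 14.61 and 14.82, LPS and PBS included. The mean of the microglia markers stepped on the same arrays, at 11.59 to 12.86 in batches 1 and 2 and 13.38 to 13.69 in batches 3 and 4. Batches 1 and 2 hold LPS and PBS arrays only, and the part of cell makeup in the step was not tested.

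The 3 probe sets of C1qb did not follow 1 pattern. The first (1417063_at) was at 13.40, 13.49, 13.11 and 14.22 in LPS arrays and at 13.14, 12.20, 12.38 and 14.34 in PBS arrays. It was at 14.40, 14.41, 14.45 and 14.41 in DAP12KO arrays, against a lowest value of 13.99, a median of 14.40 and a highest of 14.52 in UT arrays. As in C1qc, the arrays of batches 1 and 2 (12.20 to 13.49) lay below all arrays of batches 3 and 4 (13.99 to 14.52). The LPS and PBS arrays overlapped, as did those of DAP12KO and UT, while all DAP12KO arrays lay above all LPS and PBS arrays.

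The other 2 probe sets of C1qb showed no such step between batches. The brightest of the gene (1437726_x_at) was at 15.85, 15.67, 15.29 and 15.70 in LPS arrays and at 15.87, 15.47, 15.09 and 15.76 in PBS arrays. It was at 15.94, 15.79, 15.44 and 15.87 in DAP12KO arrays, against a lowest value of 15.40, a median of 15.77 and a highest of 16.21 in UT arrays. The last (1434366_x_at) ranged over 13.92 to 14.47 in LPS, 13.80 to 14.36 in PBS, 14.03 to 14.59 in DAP12KO and 14.14 to 14.75 in UT arrays. Both overlapped between all groups and between batches 1 and 2 and batches 3 and 4.

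These 2 probe sets, whose names carry _x_at for probes that may match other transcripts, moved together over the 18 arrays (Pearson r = 0.96, permutation p = 1e-05, the smallest that 100000 resamples can give, adjusted p = 7.5e-05 over 15 relations; Spearman rho = 0.90, permutation p = 1e-05, adjusted p = 0.00015; r = 0.93 without the 2 arrays farthest from the median). Within the 10 arrays of batch 4 r was 0.95, and within the 6 of batches 1 and 2 it was 0.96. Against the first probe set of C1qb the brighter of them had r = 0.48 over the 18 arrays (permutation p = 0.044, adjusted p = 0.06; rho = 0.15, permutation p = 0.55, adjusted p = 0.55), and r = 0.14 without the 2 farthest arrays. Within batch 4 that r was −0.50 (permutation p = 0.16, adjusted p = 0.26). C1qc and the first probe set of C1qb fall into separate clusters by batch, so that no pooled value is given. Within the arrays of batch 4 r between them was 0.52 (permutation p = 0.12, adjusted p = 0.26), and within those of batches 1 and 2 it was 0.74 (n = 6). The brightest C1qb probe set had r = −0.51 with C1qc within batch 4 (permutation p = 0.13, adjusted p = 0.26) and r = 0.18 within batches 1 and 2.

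C2 encodes a protease zymogen whose fragment forms part of the enzyme that splits C3. Of all member probe sets its brightest had the widest range over the arrays, 2.62 to 9.85. Its others (3.60 to 8.53 and 3.02 to 6.64) had narrower ranges than C5ar1 1422190_at (5.89 to 11.04). The brightest of C2 (1457664_x_at) was at 9.85, 7.80, 7.0 and 5.92 in LPS arrays and at 2.62, 6.54, 3.86 and 6.84 in PBS arrays. It was at 5.68, 9.47, 6.73 and 6.82 in DAP12KO arrays, against a lowest value of 6.55, a median of 7.23 and a highest of 9.07 in UT arrays. The groups overlapped. The highest array was the LPS array of batch 1 and the lowest the PBS array of the same batch.

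The second probe set of C2 (1416051_at) was at 8.53, 6.49, 4.10 and 3.598 in LPS arrays and at 3.85, 4.04, 3.86 and 3.89 in PBS arrays. It was at 3.70, 7.68, 6.20 and 4.03 in DAP12KO arrays, against a lowest value of 3.89, a median of 4.42 and a highest of 5.24 in UT arrays. The PBS arrays were alike (SD 0.09), while 2 LPS and 2 DAP12KO arrays stood well above every PBS and UT array and the other 2 of each group did not. The third (1441912_x_at) was at 6.64, 5.003, 3.93 and 3.62 in LPS arrays and at 3.62, 3.48, 3.62 and 3.32 in PBS arrays, with 3.02 to 5.53 in DAP12KO and 3.14 to 5.03 in UT arrays. In all 3 probe sets the LPS array of batch 1 was the highest of the 8 LPS and PBS arrays, and DAP12KO replicate 2 the highest DAP12KO array.

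Serping1 encodes the C1 inhibitor, which blocks the proteases bound to C1q. Its probe set (1416625_at) lay between 2.76 and 2.81 on 13 of the 18 arrays, close to the lowest value of the table, 2.19. It was at 2.77, 2.77, 2.81 and 2.76 in LPS arrays and at 2.77, 5.67, 4.74 and 2.77 in PBS arrays. It was at 2.77, 2.77, 2.19 and 3.89 in DAP12KO arrays, against a lowest value of 2.76, a median of 2.77 and a highest of 3.36 in UT arrays. The 2 highest values were those of the PBS arrays of batch 2, and the groups overlapped.

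C3ar1 and C5ar1 encode the receptors for C3a and C5a, which direct the movement and activation of myeloid cells. The brightest probe set of C3ar1 (1419483_at) was at 13.32, 12.88, 12.67 and 12.26 in LPS arrays and at 12.84, 11.90, 12.39 and 12.66 in PBS arrays. It was at 12.90, 12.46, 12.43 and 13.10 in DAP12KO arrays, against a lowest value of 11.86, a median of 12.74 and a highest of 13.05 in UT arrays. These groups overlapped, and their means lay within 0.5 log2 of each other: 12.78 ± 0.44 in LPS, 12.45 ± 0.41 in PBS, 12.72 ± 0.33 in DAP12KO and 12.65 ± 0.41 in UT arrays. The second probe set of C3ar1 (1442082_at) stepped with the batch, at 9.54 to 11.31 on the arrays of batches 1 and 2 and at 11.79 to 13.09 on those of batches 3 and 4. The third (1419482_at) ranged over 10.50 to 11.69 in LPS, 10.27 to 11.71 in PBS, 11.60 to 12.58 in DAP12KO and 11.38 to 12.38 in UT arrays.

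The brighter probe set of C5ar1 (1439902_at) was at 13.76, 14.03, 14.20 and 13.58 in LPS arrays and at 14.02, 13.07, 13.26 and 13.62 in PBS arrays. It was at 13.55, 13.67, 13.51 and 13.64 in DAP12KO arrays, against a lowest value of 12.51, a median of 13.60 and a highest of 13.97 in UT arrays. The groups overlapped, and the lowest array was the UT array of batch 3 that was also lowest of its group in C1qa. The second probe set (1422190_at) was at 9.69, 9.05, 10.37 and 9.62 in LPS arrays and at 7.40, 5.89, 8.94 and 10.85 in PBS arrays, with 8.996 to 11.04 in DAP12KO and 9.50 to 10.56 in UT arrays. Its lowest arrays were PBS arrays of batches 2 and 1, and its PBS array of batch 4 was the highest of the LPS and PBS arrays. The 2 probe sets had r = 0.14 with each other over the 18 arrays (permutation p = 0.56, adjusted p = 0.56; rho = 0.23, permutation p = 0.36, adjusted p = 0.38; r = 0.30 without the 2 farthest arrays).

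The comparison of LPS with PBS asks what inflammation of the mother does to the microglia of the embryo. Over all arrays, C1qa, C1qc and 1 probe set of C1qb stood moderately higher with LPS, and C2 stood higher with a wide error. The differences of the receptors C3ar1 and C5ar1 were above 0. That of C3ar1 1419482_at was only 0.08 ± 0.34 (SE, log2), and below 0 within batches 1 and 4. The inhibitor Serping1 stood lower against the PBS mean, which 2 PBS arrays of batch 2 raised. Its other PBS arrays were at the level of the LPS arrays. None of these differences passed the test in the fit described here. In limma, with a term for batch and Benjamini-Hochberg adjustment over 22512 probe sets, 0 of 14 complement probe sets passed an adjusted p of 0.05, beside 0.0267% of all probe sets. Without adjustment 4 of 14 had a p under 0.05, beside 12.3% of all. In 0 of 14 did LPS and PBS arrays not overlap, beside 2.23% of all. Of the 14 differences 13 were above 0, with a median of 0.45, beside 43.5% and a median of −0.10 over all probe sets.

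By size, C1qb (1417063_at) was 0.54 ± 0.17 higher with LPS (SE, log2, 95% interval 0.17 to 0.91, adjusted p = 0.22 in limma), with 3 of 4 LPS arrays above the PBS mean of their batch. It passed the test without the LPS or without the PBS array of batch 4 (0.76 in both, adjusted p = 0.0492 and 0.0494) and with array weights (0.84, adjusted p = 0.00338). Either omission takes out the comparison within batch 4, where this probe set differed by −0.12. With array weights 1968 of all 22512 tested probe sets passed for LPS minus PBS, against 6 in the main fit. C1qc was 0.40 ± 0.18 higher (interval 0.02 to 0.79, adjusted p = 0.382, 4 of 4 arrays). C1qa was 0.50 ± 0.32 higher (adjusted p = 0.558), and the 2 other probe sets of C1qb 0.15 ± 0.13 and 0.08 ± 0.14 (adjusted p = 0.7 and 0.883). The larger difference of C1qb thus came from the probe set that also stepped with the batch.

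The brightest probe set of C2 was 2.68 ± 1.09 higher with LPS (interval 0.35 to 5.003, adjusted p = 0.333, 3 of 4 arrays), and its others 1.77 ± 0.91 and 1.29 ± 0.62 (adjusted p = 0.448 and 0.417). Serping1 differed by −1.21 ± 0.49 (interval −2.26 to −0.16, adjusted p = 0.333), with 0 of 4 LPS arrays above the PBS mean of their batch, and passed with array weights (−1.93, adjusted p = 0.00721). The probe sets of C3ar1 differed by 0.34 ± 0.25, 0.53 ± 0.31 and 0.08 ± 0.34 (adjusted p from 0.524 to 0.97), and those of C5ar1 by 0.40 ± 0.24 and 1.41 ± 0.71 (adjusted p = 0.518 and 0.435).

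Between batches the differences were unlike. In batch 1, 9 of 14 probe sets were higher with LPS, 3 lower and 2 equal (median 0.18). In batch 2, 13 were higher and 1 lower (median 0.93), and in batch 4, 4 were higher and 10 lower (median −0.05). Over all tested probe sets the medians were 0, −0.06 and −0.05. In batches 1, 2 and 4 C1qa differed by 0.10, 0.96 and −0.004, C1qb (1417063_at) by 0.26, 1.01 and −0.12, and C1qc by 0.06, 0.72 and 0.11. C2 (1457664_x_at) differed by 7.23, 2.2 and −0.92, its largest step being that of the single arrays of batch 1, and C5ar1 (1422190_at) by 2.29, 2.30 and −1.22. Serping1 differed by −2.42 in batch 2, by 0 in batch 1 and by −0.009 in batch 4. Batches 1 and 4 hold 1 array of each of these groups, so their values have no error.

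**Figure D2:**
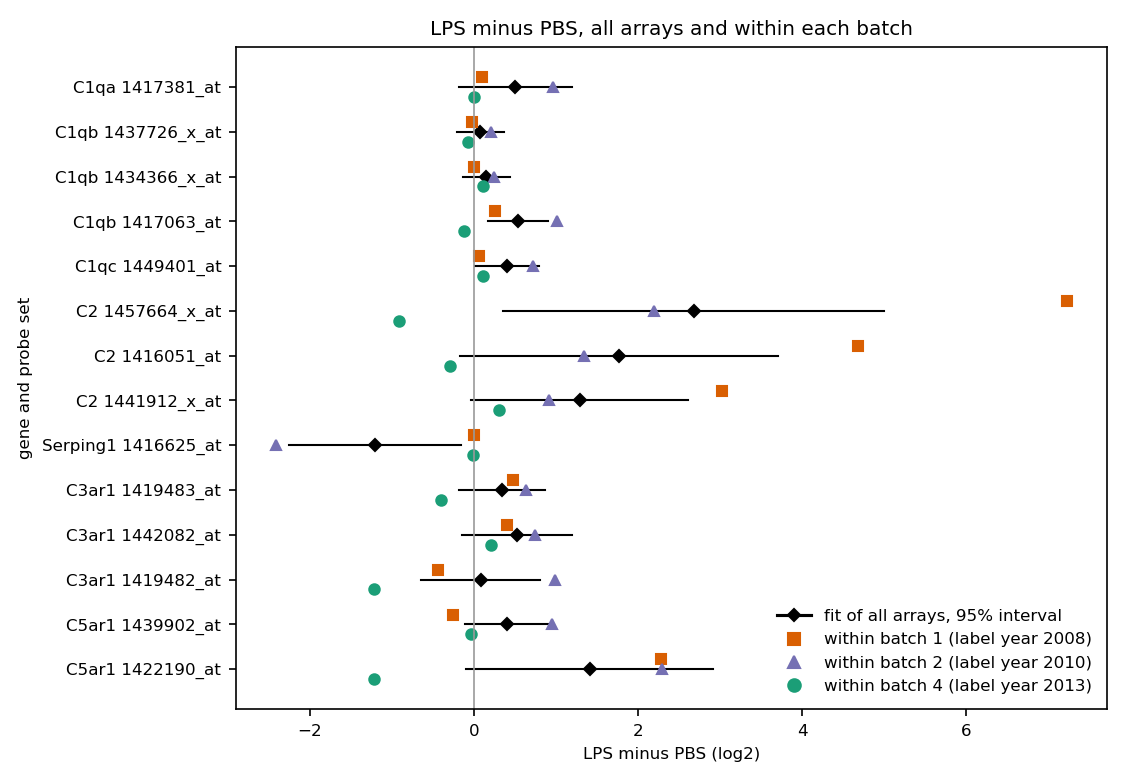
LPS minus PBS (x axis, log2) for each complement probe set (y axis): the estimate of the fit over all arrays with its 95% interval, and the difference within each batch. For 13 of 14 probe sets the difference within batch 2 lies right of 0, and for 10 that within batch 4 lies left of it, with C2 farthest out in batch 1 (7.23 for 1457664_x_at).

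Marker genes of other cells also differed between LPS and PBS arrays, and in batch 2 they did so together with the complement genes. Within batches 1, 2 and 4 the neuron markers were −0.61, −1.70 and −0.74 with LPS against PBS, those of progenitors and radial glia −0.87, −2.27 and −0.42, the microglia markers −0.10, 1.11 and 0.06, and border macrophage markers −1.21, 0.34 and −1.38. Astrocyte markers were 0.80, −1.76 and 0.18, those of endothelium −0.27, −1.05 and −0.18, and those of meninges and choroid plexus 0.06, −0.97 and 0.02. In batches 1 and 4 neuron and progenitor markers were lower with LPS as well. There C1qa, C1qc, Serping1 and the C1qb probe sets 1437726_x_at and 1434366_x_at differed by at most 0.11. The other probe sets differed by more in at least 1 of these batches. C1qb (1417063_at) differed by 0.26 and −0.12, and C2 (1457664_x_at) by 7.23 and −0.92. C3ar1 (1419482_at) differed by −0.44 and −1.22, and C5ar1 (1422190_at) by 2.29 and −1.22. Each of these values sets 1 LPS array against 1 PBS array. In such bulk samples fewer cells of a type and less RNA per cell cannot be told apart. Without the 2 PBS arrays of batch 2, C1qa was 0.05, C1qb (1417063_at) 0.07, C1qc 0.09 and Serping1 −0.004. There C3ar1 was 0.04 (1419483_at) and −0.83 (1419482_at), and C5ar1 −0.15 (1439902_at) and 0.53 (1422190_at). C2 was 3.16, 2.19 and 1.66 in its 3 probe sets, which then rest on 1 pair of arrays in batch 1 and 1 in batch 4. In this setting 10 of the 14 probe sets were higher with LPS and 4 lower, with a median of 0.06 and adjusted p of 0.365 or more. Without the LPS array of batch 1 the 3 probe sets of C2 were 1.16, 0.80 and 0.71. The part of cell composition in the differences was not tested beyond this.

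**Figure D3:**
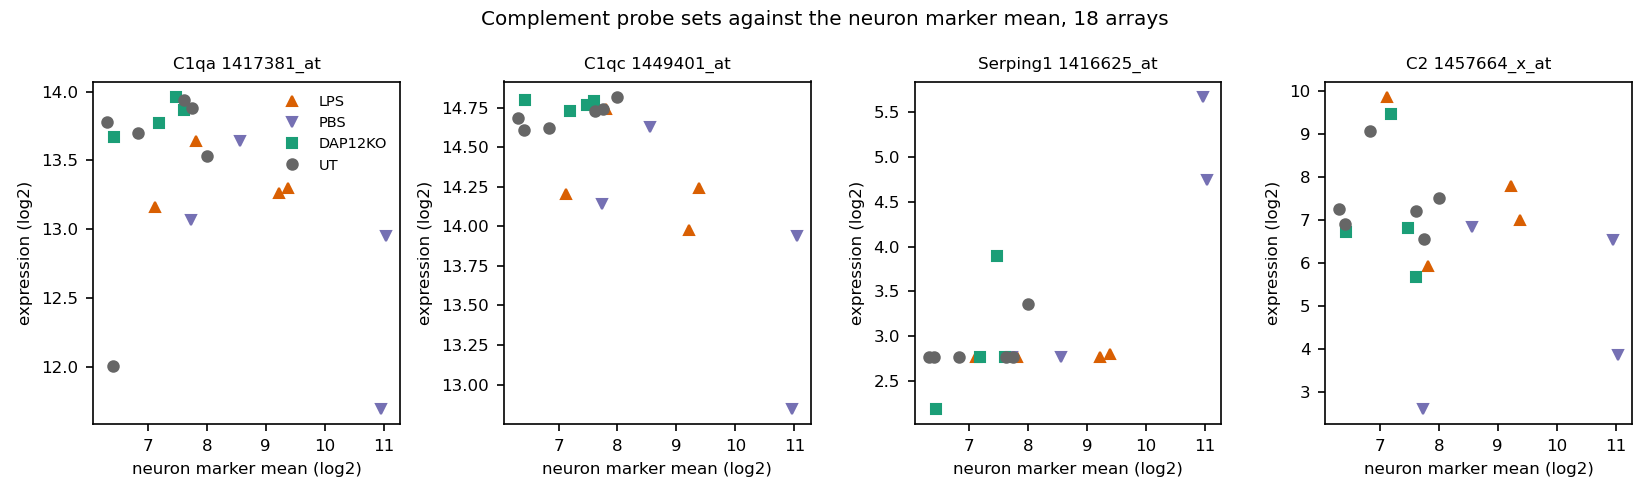
Log2 expression (y axis) of C1qa, C1qc, Serping1 and the brightest C2 probe set against the mean log2 of 15 neuron markers (x axis), a point per array shaped and coloured by group. The 2 PBS arrays at neuron means of 10.96 and 11.04 hold the highest Serping1 values (5.67 and 4.74), and 1 of them the lowest C1qa (11.70) and C1qc (12.85).

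The comparison of DAP12KO with UT asks what loss of DAP12 does to untreated microglia at the same age. The complement genes stood on both sides of their UT levels, C1q within a fraction of a log2 unit of them and C2 with wide intervals. In limma 0 of 14 probe sets passed, beside 0% of all, and without adjustment 0 of 14 had a p under 0.05, beside 5.48% of all. In 0 of 14 did the arrays not overlap, beside 0.84% of all. Of the differences 7 were above and 7 below 0, with a median of 0.02, beside 51.3% above 0 and a median of 0.02 over all probe sets. All DAP12KO arrays are in batch 4, so its 4 UT arrays set these differences.

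C1qa differed by 0.06 ± 0.32 (SE, log2, 95% interval −0.63 to 0.75), and C1qc by 0.05 ± 0.18 (−0.34 to 0.43). The C1qb probe sets differed by 0.15 ± 0.17 (1417063_at, −0.22 to 0.52), −0.18 ± 0.14 (1437726_x_at, −0.47 to 0.11) and −0.18 ± 0.13 (1434366_x_at, −0.46 to 0.11). A difference of 1 log2 unit lies outside all 5 intervals. For the receptors the brightest probe sets differed by 0.22 ± 0.25 (C3ar1, −0.30 to 0.75) and −0.05 ± 0.24 (C5ar1, −0.56 to 0.45), and 1419482_at of C3ar1 by 0.45 ± 0.34 (−0.28 to 1.18), with 4 of 4 DAP12KO arrays above the UT mean of batch 4. The last probe set of C3ar1 (1442082_at) differed by −0.10 ± 0.31 (−0.76 to 0.57). The second of C5ar1 (1422190_at) differed by 0.06 ± 0.71 (−1.445 to 1.564), an interval that holds changes of 1 log2 unit either way.

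Serping1 differed by −0.009 ± 0.49 (−1.06 to 1.04). For C2 the intervals reached from −2.73 to 1.91 (1457664_x_at, −0.41 ± 1.09), from −1.03 to 2.85 (1416051_at, 0.91 ± 0.91) and from −1.33 to 1.31 (1441912_x_at, −0.01 ± 0.62). Changes of C2 within these bounds are not excluded by these arrays. Without DAP12KO replicate 2, the highest of its group, C2 was −1.17, 0.15 and −0.57. Adjusted p values of all 14 lay between 0.923 and 1. Microglia markers were 0.10 and neuron markers −0.37 in DAP12KO against UT arrays of batch 4, and border macrophage markers −0.96.

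**Figure D4:**
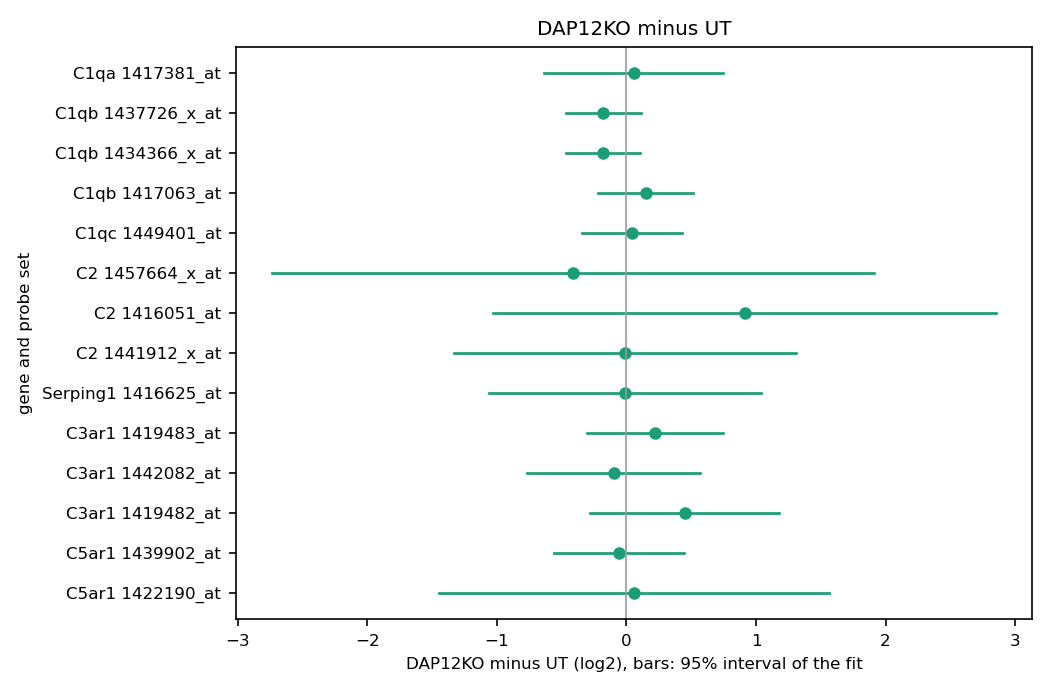
DAP12KO minus UT (x axis, log2) for each complement probe set (y axis), with the 95% interval of the fit. All 14 intervals include 0, from the narrow ones of the C1qb probe sets to those of C2, which reach from −2.73 to 1.91 for 1457664_x_at.

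Whether the responses to LPS and to loss of DAP12 differ was tested in the same fit, in which they share no control arrays. Of the complement probe sets 0 of 14 passed, beside 0.00444% of all, and without adjustment 0 of 14 had a p under 0.05, beside 8.19%. The brightest probe set of C2 had the lowest p, with LPS minus PBS exceeding DAP12KO minus UT by 3.09 ± 1.55 (SE, log2, adjusted p = 0.627). The first C1qb probe set exceeded by 0.39 ± 0.24 (adjusted p = 0.682) and C1qc by 0.36 ± 0.26 (adjusted p = 0.721). Batch 4 holds all 4 groups. There the LPS array lay inside the range of the 4 UT arrays in 10 of 14 probe sets and below it in 4 (2 of C2, 1 of C1qb and 1 of C3ar1). The PBS array of batch 4 lay inside it in 13 and above it in 1 of C5ar1. Values within 0.005 log2 of the range were counted as inside.

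The remaining complement genes give the surroundings of these members. Of 50 listed, 40 had a single-gene probe set and 17 passed the filter, each by its brightest. None of the 6 probe sets of terminal components, which form the pore of the membrane attack complex, passed the filter, nor did those of the C1 proteases C1ra and C1s1 or of Mbl1 and Mbl2, lectins that start the cascade on sugars. With LPS 10 of the 17 were higher and 7 lower, with a median of 0.09, beside 43.5% higher over all probe sets. Of these 17, 0 passed the threshold, beside 0.0267% of all, and 4 had an unadjusted p under 0.05, beside 12.3%. In DAP12KO 8 were higher and 9 lower, beside 51.3% higher over all probe sets. Here 0 passed the threshold, beside 0% of all, and 1 had an unadjusted p under 0.05, beside 5.48%.

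The 6 tested receptors had positive differences with LPS (median 0.67), and 0 of 6 passed the threshold. Within batches several turned: Itgax was −1.16 and Calr −0.49 in batch 1, and Itgb2 −0.76 and Cd93 −0.56 in batch 4. Itgam, a chain of complement receptor 3 that binds fragments of C3, was 2.25 ± 0.43 higher (SE, log2, adjusted p = 0.0744), at 9.84 ± 1.09 in LPS and 7.58 ± 2.22 in PBS arrays (SD). Within batches 1, 2 and 4 the difference was 2.2, 3.03 and 0.76, and without the 2 PBS arrays of batch 2 it was 1.48 (adjusted p = 0.243). Itgam passed without the LPS or without the PBS array of batch 4 (2.75 in both, adjusted p = 0.00972 and 0.00944) and with array weights (2.60, adjusted p = 0.000964). With these weights 1968 of all 22512 tested probe sets passed, against 6 in the main fit. In DAP12KO and UT arrays Itgam was at 11.06 ± 0.54 and 10.87 ± 0.42. Csmd1, a membrane regulator of complement found in neurons, differed by −1.45 ± 0.37 (adjusted p = 0.161), at 2.45 ± 0.47 in LPS and 3.90 ± 1.27 in PBS arrays. Without the 2 PBS arrays of batch 2 the difference was −0.80. The means were 2.19 in DAP12KO and 2.29 in UT arrays, at or near the lowest value of the table, 2.19. Only the PBS mean lay over the filter threshold of 2.49, so the PBS arrays brought Csmd1 into the test. Csmd1 passed without the LPS or without the PBS array of batch 1 (−1.94 in both, adjusted p = 0.0157 and 0.0163) and with array weights (−2.03, adjusted p = 0.00152). These results rest on the same PBS values. In DAP12KO, Clu, which encodes clusterin, a secreted inhibitor of the terminal complex, differed by −2.43 ± 0.81 (adjusted p = 0.779), at 6.39 ± 1.64 in DAP12KO and 8.53 ± 1.08 in UT arrays. Its LPS minus PBS difference was −2.82 ± 0.81 (adjusted p = 0.177), at 7.63 ± 1.79 in LPS and 10.45 ± 0.75 in PBS arrays, with −4.55, −2.57 and −1.58 in batches 1, 2 and 4. Masp1, a protease of the lectin arm, differed by 1.65 ± 1.00 (adjusted p = 0.921).

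The genes most alike over the 18 arrays, by Pearson r with the brightest probe set of each member, were in part those that step with the batch. For C1qc they were Arhgap27 (r = 0.96), Plagl2 (0.95) and Arsb (0.95), of which Arsb had r = 0.77 and Plagl2 r = 0.07 within the 10 arrays of batch 4. For C1qa they were H2ac19 (0.89), Sema6b (0.88) and Lmna (0.87), with r of 0.11 to 0.40 within batch 4. For C1qb they were Tm9sf2, Ivns1abp and Laptm5 (each 0.87), with 0.83 to 0.88 within batch 4. For C2 they were Denr (0.87), the RNA sensor Tlr3 (0.87) and Arfrp1 (0.83), with 0.67 to 0.73 within batch 4. For Serping1 they were Slc16a14 (0.97), Plcxd2 (0.96) and Vegfc (0.96), with 0.77 to 0.79 within batch 4. Serping1 lay between 2.76 and 2.81 on 13 arrays, so these r rest on few arrays, and Spearman rho was 0.60 to 0.70. For C3ar1 they were Snx5 (0.86), Nfya (0.83) and Mir142 (0.81), with 0.85 to 0.90 within batch 4, and for C5ar1 Elk3 (0.91), Calr (0.89) and Extl3 (0.81), with 0.07 to 0.61. The points share their arrays, batches and cell makeup, and these values are given without a test.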

How the data were processed

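RNA of 18 samples was amplified, labelled and hybridized to Affymetrix mouse genome arrays, per the labels' protocols. The values the authors deposited are log2 expression values of 45101 probe sets. RMA is named in the submitters' processing notes, and no source used here gives its version or settings. RMA brings arrays to 1 distribution, and amplification and probe affinity set each probe set's level, so levels of different probe sets are not compared. On the LPS and PBS array of batch 1, 1064 probe sets over the filter held exactly equal values, which makes some differences exactly 0.

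Single-gene probe sets (34958, with 932 naming several genes and 9211 none) with a mean at or over the 40th percentile (log2 2.49) were tested, 22512 probe sets of 11630 genes. The model, fitted to all 18 arrays with limma 3.58.1 (R 4.3.3), had a term for group and one for batch, the label year, and a variance prior following intensity (residual degrees of freedom 11). P-values are two-sided and were adjusted by Benjamini and Hochberg over all tested probe sets, with a threshold of 0.05. The test was tried on simulated data. Errors of differences are standard errors and those of group means standard deviations. Correlations and figures used Python 3.11.15 and matplotlib 3.10.9. For arrays, their number limits the precision. RNA was pooled per dam, per the series' design text. Whether the arrays of a group are of separate dams is taken from the labels' replicate numbers, and p-values measure the spread between these arrays. Same-numbered LPS and PBS arrays of batch 2 deviated alike from their group means (r = 0.52), while those of DAP12KO and UT did not (r = −0.01 and 0.00).

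All single-gene probe sets of the 9 genes were named. Of the other complement genes the counts and the 2 with the lowest p in each comparison were named. For likeness the 3 genes with the highest Pearson r were named, without predicted and clone names. The members and the lists of genes and markers were chosen with earlier results of these data known. Alternatives were no batch term, 1 probe set per gene, other filters, low values set to the threshold, only the groups compared, array weights, a replicate block and arrays left out.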

Additional observations from a re-analysis of the deposited data

Results flagged for a closer look

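Within groups of 4 or 6 arrays, 5 of 56 sets of values held an array far from the others by Dixon's criterion, which chance alone would give in about 1 in 20. In UT, 1 array of batch 3 (replicate 4) had C1qa at 12.005, against 13.53 to 13.94 on the other 5. It was also the lowest UT array in C1qc and in the 2 _x_at probe sets of C1qb, by smaller gaps. UT replicate 2 of batch 4 had C2 (1441912_x_at) at 5.03, against 3.14 to 3.65, and C3ar1 (1419483_at) at 11.86, against 12.66 to 13.05. UT replicate 6 of batch 4 had Serping1 at 3.36, against 2.76 to 2.77. DAP12KO replicate 2 had C2 (1441912_x_at) at 5.53, against 3.02 to 3.43 on the other 3, and was the highest of its group in the 2 other C2 probe sets. The cause of these values was not tested.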

How the results depend on the processing

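In every alternative run 0 complement probe sets passed in DAP12KO minus UT. In LPS minus PBS 0 passed except in 3 alternatives. With array weights C1qb (1417063_at, 0.84, adjusted p = 0.00338) and Serping1 (−1.93, adjusted p = 0.00721) passed, and without LPS replicate 3_2 or PBS replicate 2 of batch 4 C1qb (1417063_at) passed at 0.76 (adjusted p = 0.0492 and 0.0494). The number of all probe sets that passed for LPS minus PBS, 6, was 1 without the batch term, 11 with 1 probe set per gene, 0 with a filter at the 60th percentile or with only the groups compared, 1968 with array weights, 25 with the replicate block, 21 without both PBS arrays of batch 2, 11 without all arrays of batch 2, and 1 to 243 with each array left out. For DAP12KO minus UT, 0, it was 0 to 5 with each array left out. For the difference of the responses, 1, it was 0 with 1 probe set per gene or a filter at the 60th percentile, 2 with no filter, 55 with array weights, 4 without the PBS arrays or all arrays of batch 2, and 0 to 32 with each array left out. The replicate numbers were not taken to pair samples. For DAP12KO and UT, 2 same-numbered pairs did not deviate together, while same-numbered LPS and PBS arrays of batch 2 did (r = 0.52). Whether the latter are paired samples is not known. The block moved no complement probe set past the threshold. Without both PBS arrays, or all arrays, of batch 2 LPS minus PBS changed sign for C3ar1 1419482_at (−0.83), C1qb 1437726_x_at (−0.0435) and C5ar1 1439902_at (−0.15). For DAP12KO minus UT, small differences changed sign without the batch term (Serping1 0.041, C5ar1 1422190_at −0.0878 and 1439902_at 0.15, C2 1441912_x_at 0.13), with low values set to the threshold (Serping1 0.0666) and with array weights (Serping1 0.10, C2 1441912_x_at 0.48 and 1457664_x_at 0.27). With each array left out, values that changed sign ran from −0.34 to 0.23 (Serping1), −0.57 to 0.38 (C2 1441912_x_at), −1.17 to 0.0891 (C2 1457664_x_at), −0.28 to 0.40 (C5ar1 1422190_at), −0.15 to 0.0539 (C5ar1 1439902_at), −0.29 to 0.15 (C3ar1 1442082_at) and −0.021 to 0.11 (C1qa) for DAP12KO minus UT, and from −0.25 to 0.52 (C3ar1 1419482_at) and −0.0219 to 0.13 (C1qb 1437726_x_at) for LPS minus PBS. The causes were not tested.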
